A study of Sus scrofa with 12 samples.

Results

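The genes described here carry the vitamin A pathway: DHRS3, CYP26B1, CYP26A1, ALDH1A2, CRABP2, STRA6, RARA, RARB and RARG. They were followed in paVICs, the interstitial cells of the pig aortic valve. The set was chosen by the fall of DHRS3 with dantrolene, that is, by its counts in libraries with and without dantrolene. Dantrolene compared to vehicle was taken as the contrast that chose it, so the members' values there are given as a description with no test. The LPC and LPC + dantrolene libraries may have entered the choice as well. Members were the rows of the count table that carry a listed symbol. Of the 9 listed symbols 8 had a row, among 31908 genes in all, and no row carried the symbol RARB. A row without a symbol, ENSSSCG00000011212, is paired with RARB by the gene-name table and is described and tested apart from the members.

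Vitamin A circulates as retinol, and cells turn it into its active form, retinoic acid, in consecutive oxidation steps through retinal. Retinoic acid binds nuclear receptors, the RARs, which sit on DNA with RXR partners and change transcription of their target genes. Cells keep its level narrow by reducing retinal back to retinol and by oxidizing retinoic acid for disposal. Several genes of these braking steps are themselves known to be induced by retinoic acid. Retinoic acid is required for heart and valve development.

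The 12 libraries came from wild-type paVICs in 4 groups of 3, treated for 24 h in medium with 1% bovine growth serum. The vehicle group received 0.6% DMSO and 0.1% ethanol. The LPC group received 10 μM lysophosphatidylcholine, a lipid carried in ethanol, with 0.6% DMSO. The dantrolene group received 60 μM of the ryanodine receptor blocker dantrolene, carried in DMSO, with 0.1% ethanol. The last group received 60 μM dantrolene in DMSO and 10 μM LPC in ethanol together. Replicates 1, 2 and 3 of every group are primary isolations 1, 2 and 3, each pooled from the valves of several hearts, so libraries with the same number share their cells of origin.

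Total counts lay between 16489684 and 24105935 per library, and 3 counts corresponded to 0.114 to 0.186 CPM, the unit of a gene's counts relative to its library's total. Such a floor accounts for counting error alone. Levels below are CPM scaled by TMM factors, and a change is a log2 fold change from an edgeR fit of all 12 libraries. Calls were made at an adjusted p under 0.05, by the Benjamini-Hochberg method over the 13216 genes tested. The 10 interstitial cell and fibroblast markers were all expressed, and their summed level ran from 44542 to 81806 CPM. The summed level of 6 leukocyte markers was 12.4 to 28.5 CPM, most of it from CD14 at 10.3 to 24.5 CPM, while PTPRC, CD163 and CD3E were at 0 in all libraries. Of 4 epithelial markers CDH1 was at 0 and the highest value was 2.10 CPM, for KRT5. LPC + dantrolene replicate 2 stood apart on the first principal component of the 500 most variable genes, at −46.0 against −16.0 to 20.8 for the other libraries. Exon lengths were not used here, so levels are meant for comparison between libraries. Where markers are summed or ranked, their levels are not corrected for gene length.

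DHRS3 (ENSSSCG00000003439) encodes a short-chain reductase that returns retinal to retinol and so limits the supply of retinoic acid. In the RefSeq annotation of Sscrofa11.1 the gene lies on chromosome 6 from 72556234 to 72599233. Its level was 159, 94.5 and 164 CPM in vehicle replicates 1, 2 and 3. The LPC libraries gave 65.3, 97.4 and 129 CPM. The dantrolene libraries gave 37.3, 21.4 and 23.5 CPM. The LPC + dantrolene libraries gave 30.0, 62.9 and 21.9 CPM. All 6 libraries with dantrolene were below all 6 without it, and the narrowest gap was between LPC replicate 1 and LPC + dantrolene replicate 2. That split includes the vehicle and dantrolene libraries that chose the gene. The share of all genes split in the same way was not counted.

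The group means of DHRS3 were ordered vehicle (139 ± 38.8 CPM, SD, n = 3), LPC (97.2 ± 31.8), LPC + dantrolene (38.2 ± 21.7) and dantrolene (27.4 ± 8.62). Vehicle and LPC overlapped, and so did the groups with dantrolene. Dantrolene compared to vehicle, the contrast that chose the gene, gave a log2 fold change of −2.35, which is 5.08-fold lower. Within isolations 1, 2 and 3 DHRS3 was 4.26-, 4.39- and 6.96-fold lower. Against vehicle, LPC + dantrolene gave −1.87, LPC compared to vehicle −0.52 and LPC + dantrolene compared to dantrolene 0.48. These values share vehicle or dantrolene libraries with the contrast that chose the gene and were not tested. In RNA from whole cultures, fewer cells of a type and less RNA per cell cannot be told apart.

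**Figure D1:**
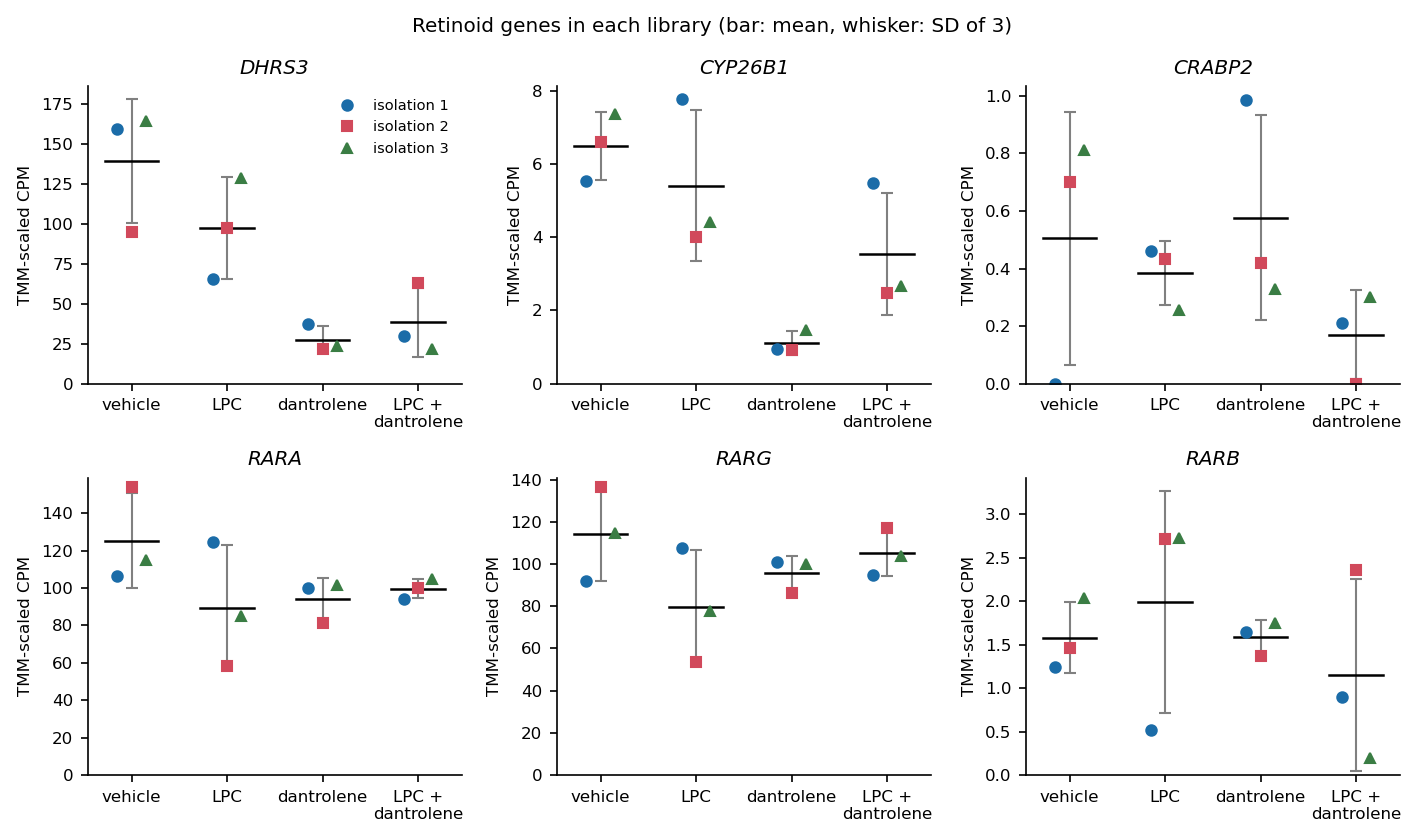
Level of 5 members and of RARB in each library, as TMM-scaled CPM (vertical axes, from 0, with a separate scale for each gene) in the 4 treatment groups (horizontal axes). Each symbol is a library, its shape and color give the isolation, bars are means and whiskers are the SD of 3 libraries. DHRS3 is at most 62.9 CPM in the libraries with dantrolene and at least 65.3 CPM in the libraries without it, which include the libraries that chose it. RARA and RARG overlap in most comparisons.

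The comparison of LPC + dantrolene to LPC shares no library with dantrolene compared to vehicle. Its spread was estimated from all 12 libraries, and the authors' batch adjustment of the counts can draw on all of them too. DHRS3 was also chosen with earlier results of these data known, and that choice may have drawn on this comparison. The p is therefore not that of an unseen comparison. There DHRS3 fell 2.54-fold, with a log2 fold change of −1.35 (SE 0.35, 95% interval −2.03 to −0.66) and an adjusted p of 0.0450. Of the 5 members tested only DHRS3 was called, where 0.507% of all genes tested were called, 0.288% as lower. Its groups did not overlap, and 4.93% of all genes were lower without overlap. For every other member tested the groups overlapped. DHRS3 is the gene that chose the set, so these counts are no evidence about the set. DHRS3 was 2.17-, 1.55- and 5.87-fold lower in isolations 1, 2 and 3. The pairs differed in size, while their shared direction follows from the groups not overlapping.

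The direction of that change held in all 20 alternatives, but the call was lost in 14 of them. With the isolation as a block the log2 fold change was −1.36 and the adjusted p was 0.215. A fit of only the groups compared, with the vehicle and dantrolene libraries left out, gave −1.36 and an adjusted p of 0.299. The counts it used had already been adjusted for batch by the authors, which can draw on the libraries left out. DESeq2 gave −1.33 and an adjusted p of 0.0838. Leaving out LPC + dantrolene replicate 2, the library that stood apart, gave −1.92 and an adjusted p of 0.000344. The call was lost without vehicle replicates 1 or 2 (adjusted p of 0.155 and 0.107), without LPC replicates 1, 2 or 3 (0.0660, 0.356 and 0.469), without dantrolene replicates 1 or 2 (0.0578 and 0.0684), and without LPC + dantrolene replicates 1 or 3 (0.148 and 0.477). The change itself stayed between −1.92 and −1.07 when single libraries were left out.

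**Figure D2:**
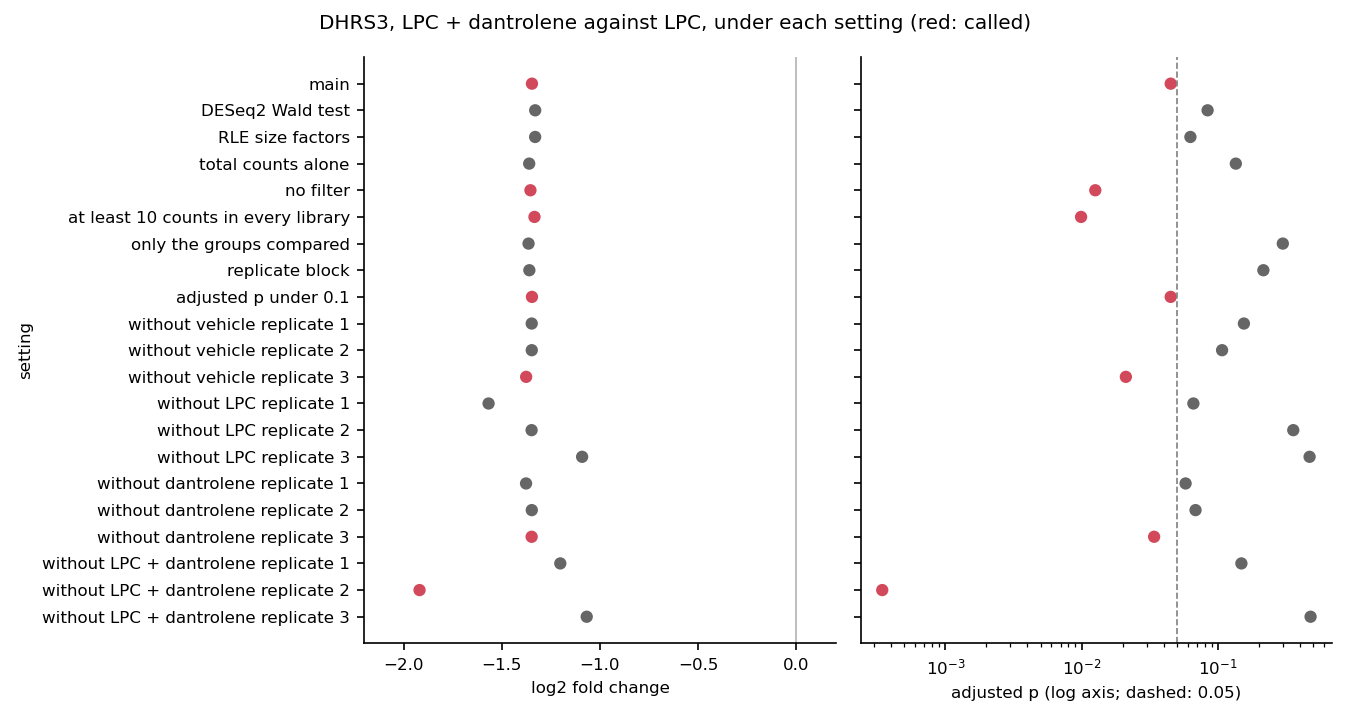
DHRS3 in LPC + dantrolene compared to LPC under the main setting and 20 alternatives (rows), with the log2 fold change at left and the adjusted p on a log axis at right. Red points are called, at an adjusted p under 0.05, or under 0.1 for the setting of that name, and the dashed line marks 0.05. Every log2 fold change lies between −1.92 and −1.07, while the adjusted p spreads from 0.000344 to 0.477.

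Summed markers of interstitial cells and fibroblasts, of endothelial cells and of smooth muscle were all lower in dantrolene than in vehicle. Of all genes tested, 11% were lower without overlap in that contrast. The leukocyte sum overlapped, at 16.3 to 23.8 CPM in vehicle and 16.3 to 18.0 in dantrolene. The 10 interstitial cell and fibroblast markers summed to 63734.9 to 73097.4 CPM in vehicle and 45435.4 to 57992.5 in dantrolene. They summed to 44542 to 67518.8 CPM in LPC and 51072.5 to 81806.2 in LPC + dantrolene, which overlap. COL1A1, COL1A2, COL3A1 and VIM made up most of this sum, with medians over all libraries of 19307.5, 18503.4, 11814 and 8183.49 CPM. The next highest median was 498.365 CPM, for PDGFRB. The sum thus describes mainly collagen and vimentin RNA, and says little about the other markers. The summed level of 6 endothelial markers was 75.1 to 77.1 CPM in vehicle, 56.6 to 63.8 in LPC, 42.8 to 56.3 in dantrolene and 45.6 to 52.6 in LPC + dantrolene. PECAM1 and CDH5 made up most of this sum, and KDR did not exceed 0.238 CPM in any library. The summed level of 4 smooth muscle markers was 2053 to 4043 CPM in vehicle and 1590 to 2037 in dantrolene, which do not overlap. It was 1954 to 3568 CPM in LPC and 844 to 2723 in LPC + dantrolene, which overlap. The part of these cell markers in the fall of DHRS3 was not tested.

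CYP26B1 (ENSSSCG00000008311) encodes a cytochrome P450 that oxidizes retinoic acid and so ends its signal. Its level was 5.53, 6.60 and 7.38 CPM in vehicle replicates 1, 2 and 3. The LPC libraries gave 7.79, 4.02 and 4.42 CPM. The dantrolene libraries gave 0.931, 0.914 and 1.47 CPM, from 17 to 27 counts each. The LPC + dantrolene libraries gave 5.47, 2.48 and 2.66 CPM. The dantrolene libraries were thus the lowest 3 of the 12, and the LPC + dantrolene libraries lay between them and vehicle.

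For CYP26B1, dantrolene compared to vehicle gave a log2 fold change of −2.56, which is 5.88-fold lower, as a description. LPC + dantrolene was 3.21-fold higher than dantrolene alone, at 1.68 (SE 0.47, 95% interval 0.75 to 2.61), and the groups did not overlap. The unadjusted p was 0.000526 but the adjusted p was 0.631, so CYP26B1 did not pass the test over all genes. It was higher in each isolation, by 5.39-, 2.54- and 1.75-fold, a direction that follows from the groups not overlapping. In this comparison 0.0227% of all genes were called and 2.54% were higher without overlap. None of the 4 members tested was called by edgeR or DESeq2, and each tool gave 1 at an unadjusted p under 0.05. Under the alternatives the CYP26B1 change ran from 1.22 to 1.93 and its adjusted p from 0.118 to 1.

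The other comparisons of CYP26B1 were smaller. Against LPC, LPC + dantrolene gave −0.61 (SE 0.44, 95% interval −1.48 to 0.26, adjusted p = 0.900), and the groups overlapped. LPC compared to vehicle gave −0.26 (SE 0.43, 95% interval −1.12 to 0.59, adjusted p = 0.781). Against vehicle, LPC + dantrolene gave −0.87 (SE 0.44, adjusted p = 0.337), with its highest library at 5.47 CPM and the lowest vehicle library at 5.53 CPM. For DHRS3, LPC + dantrolene stood 1.40-fold above dantrolene, with overlap, and 3.21-fold above it for CYP26B1. The DHRS3 value rested on LPC + dantrolene replicate 2, without which its log2 fold change was −0.085. Within isolations 1, 2 and 3 DHRS3 in LPC + dantrolene was 0.805, 2.92 and 0.932 times its level in dantrolene. The difference between these genes was not tested. Over the 12 libraries their log2 CPM correlated with Pearson's r of 0.691, a description of points that share libraries and the split by dantrolene.

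CYP26A1 (ENSSSCG00000010475), the related retinoic acid hydroxylase, had 1 count over all libraries, in vehicle replicate 3. ALDH1A2 (ENSSSCG00000025578), the dehydrogenase that makes retinoic acid from retinal, had 11, 11 and 3 counts in vehicle, 0, 5 and 1 in LPC, 3, 0 and 1 in dantrolene, and 1, 1 and 9 in LPC + dantrolene. STRA6 (ENSSSCG00000001909), the membrane receptor that takes up retinol from its carrier in blood, had at most 13 counts in a library. These 3 members were removed by the filter for low counts, and a change in them was not detectable at this depth.

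CRABP2 (ENSSSCG00000006472) encodes a binding protein that carries retinoic acid to its receptors in the nucleus. It passed the filter with 0, 12 and 14 counts in vehicle, 9, 8 and 5 in LPC, 18, 11 and 6 in dantrolene, and 4, 0 and 6 in LPC + dantrolene. LPC + dantrolene was 1.68 lower than dantrolene on the log2 scale (SE 1.16, 95% interval −3.98 to 0.63, adjusted p = 1). The groups did not overlap in that comparison, where 2.17% of all genes were lower without overlap. The wide intervals of CRABP2 in all comparisons where it was tested leave its direction undetermined.

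RARA (ENSSSCG00000017475, chromosome 12 from 22047449 to 22085759) and RARG (ENSSSCG00000000258) encode nuclear receptors for retinoic acid, and both were well covered. RARA was at 107, 154 and 115 CPM in vehicle replicates 1, 2 and 3. The LPC libraries gave 125, 58.3 and 85.0 CPM for RARA. The dantrolene libraries gave 99.9, 81.4 and 102 CPM, and the LPC + dantrolene libraries gave 94.3, 100.1 and 105 CPM. LPC replicate 2 was the lowest library for RARA, and the LPC libraries spanned the widest range.

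RARG was at 91.9, 137 and 115 CPM in vehicle and at 108, 53.4 and 77.9 CPM in LPC. It was at 101, 86.4 and 100.03 CPM in dantrolene and at 94.9, 117 and 104 CPM in LPC + dantrolene. LPC replicate 2 was again the lowest library. The receptors varied together across the libraries, with Pearson's r of 0.928 for log2 CPM over 12 libraries, a description of values that share library scaling. RARA and RARG followed DHRS3 little, with r of 0.111 and −0.0757.

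LPC compared to vehicle gave −0.49 for RARA (SE 0.32, 95% interval −1.12 to 0.15, adjusted p = 0.526). It gave −0.52 for RARG (SE 0.32, 95% interval −1.16 to 0.11, adjusted p = 0.479). The median log2 fold change over all genes tested was −0.18 in the same comparison. None of 4 members was called there by edgeR or DESeq2, none had an unadjusted p under 0.05 by either tool, and 8.69% of all genes tested were called. Against LPC, LPC + dantrolene gave 0.16 for RARA (adjusted p = 0.968) and 0.40 for RARG (adjusted p = 0.928).

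LPC + dantrolene compared to vehicle gave −0.33 for RARA (adjusted p = 0.823), whose groups did not overlap. It gave −0.12 for RARG (adjusted p = 0.966), and 0.083 when only total counts were used for scaling, which moved the median of all genes by 0.20. In that comparison 0 of 4 members were called by edgeR or DESeq2, 1 had an unadjusted p under 0.05 in edgeR and 0 in DESeq2, and 7.14% of all genes were called. Of those 4 members 2, CYP26B1 and RARA, were lower without overlap, as were 5.74% of all genes. Dantrolene compared to vehicle gave −0.41 for RARA and −0.26 for RARG as a description. In that contrast CYP26B1 and RARA were lower without overlap, as were 11% of all genes. DHRS3 was too, but it was chosen for its fall there and is no evidence about the set.

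RARB, the remaining receptor and a known target of retinoic acid, was read from the row without a symbol. Its RefSeq gene lies on chromosome 13 from 12336387 to 12507688 in Sscrofa11.1. The row held 26, 25 and 35 counts in vehicle, 10, 50 and 53 in LPC, 30, 36 and 32 in dantrolene, and 17, 38 and 4 in LPC + dantrolene. No comparison passed the test. Dantrolene compared to vehicle gave 0.01 (SE 0.67, 95% interval −1.32 to 1.34, adjusted p = 0.996), and LPC + dantrolene compared to LPC gave −0.80 (SE 0.68, 95% interval −2.14 to 0.55, adjusted p = 0.939). These intervals include changes of more than 2-fold, so RARB was not resolved at this depth.

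**Figure D3:**
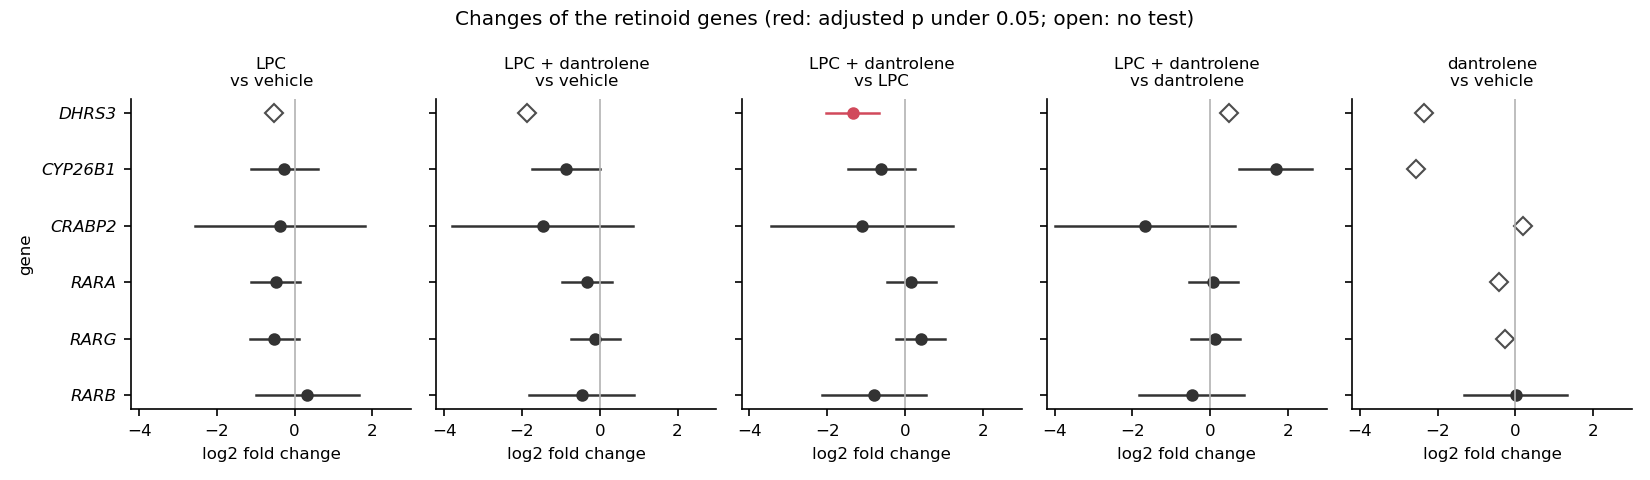
Log2 fold changes (horizontal axes) of 5 members and of RARB (rows) in 5 comparisons (panels). Filled points were tested, lines are 95% intervals, the red point passed an adjusted p of 0.05 and open diamonds are values with no test. The red point is DHRS3 in LPC + dantrolene compared to LPC, and the intervals of CRABP2 are the widest.

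Beyond the members, 87 further genes of the pathway were listed by role, 79 had a row and 52 were tested. LPC compared to vehicle called 2 of the 52, both higher, against 8.69% of all genes in either direction and 8.54% higher. In LPC + dantrolene compared to vehicle 2 were called, both higher, against 7.14% and 6.23%. With dantrolene compared to vehicle 3 were called, all higher, against 8.8% and 7.54%. The interaction, the effect of LPC in the presence of dantrolene minus that in its absence, called 2, both lower, against 4.65% of all genes in either direction and 4.49% lower. Comparisons of LPC + dantrolene to LPC and to dantrolene called 0 in both edgeR and DESeq2, with 4 and 0 genes at an unadjusted p under 0.05 in edgeR and 3 and 0 in DESeq2. The median log2 fold change of the 52 was −0.12 for LPC compared to vehicle, against −0.18 over all genes tested. It was −0.16 against −0.11 for dantrolene compared to vehicle, and 0.15 against 0.02 for LPC + dantrolene compared to LPC.

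Among genes of uptake, binding and storage, 7 of 14 listed were tested and none was called in any of these comparisons. DGAT1, which can esterify retinol, was at 16 CPM in vehicle and 12.6 CPM in dantrolene on average (−0.35, adjusted p = 0.715). LIPE, which can hydrolyze retinyl esters, gave −0.54 (adjusted p = 0.590) in the same comparison.

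Among enzymes that convert retinol and retinal into each other, 11 of 19 were tested and RDH16 was the only gene called. RDH16, a retinol dehydrogenase, had 8, 0 and 36 counts in vehicle and 27, 71 and 158 in dantrolene. The LPC libraries gave 47, 33 and 1 counts, and the LPC + dantrolene libraries gave 42, 0 and 77. For RDH16, dantrolene compared to vehicle gave 2.37 (SE 0.77, adjusted p = 0.0352) although the groups overlapped. The call was lost in 10 of 19 alternatives, among them DESeq2 (adjusted p = 0.597), total counts alone (0.143) and the isolation as a block (2.80, adjusted p = 0.0683). Leaving out dantrolene replicate 3 gave 1.35 with an adjusted p of 0.478. The RDH16 call was also lost without vehicle replicates 1 or 2 (0.346 and 0.378), LPC replicates 1 or 2 (0.121 and 0.236), dantrolene replicate 2 (0.0944) or LPC + dantrolene replicate 1 (0.0780), and without vehicle replicate 3 the change was 4.40.

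RDH10, the retinol dehydrogenase that acts opposite to DHRS3, was named after its values were seen. It was at 9.44, 7.07 and 5.64 CPM in vehicle and 4.30, 8.25 and 6.28 CPM in LPC. It was at 16.4, 8.61 and 11.3 CPM in dantrolene and 7.79, 16.4 and 16.8 CPM in LPC + dantrolene. For RDH10, LPC + dantrolene compared to LPC gave 1.12 (SE 0.37) with an adjusted p of 0.221, and the groups overlapped. ADH5 and DHRS4, the genes with the most counts in this list, had changes between −0.20 and 0.22 in all 5 comparisons, with none called.

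For retinoic acid synthesis and breakdown, 3 of 5 listed genes were tested and none was called. ALDH1A3, a dehydrogenase that makes retinoic acid, was at 36.4 ± 14.4 CPM in vehicle, 44.3 ± 14.1 in LPC, 59.6 ± 9.88 in dantrolene and 64.0 ± 37.2 in LPC + dantrolene (SD, n = 3). ALDH1A3 with dantrolene compared to vehicle gave 0.71 (SE 0.35, adjusted p = 0.289) and LPC + dantrolene compared to vehicle gave 0.82 (SE 0.35, adjusted p = 0.201). ALDH1A1, its relative, gave 0.46 (SE 0.43, adjusted p = 0.693) with dantrolene.

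Among partner receptors and cofactors, 19 of 21 were tested, and TBL1XR1 was the gene called. TBL1XR1 is a subunit of a corepressor complex that contains NCOR1, which receptors hold when no retinoic acid is bound. It was at 10.6, 8.18 and 5.99 CPM in vehicle and rose to 27.2, 34.3 and 30.6 CPM in LPC. The dantrolene libraries gave 21.0, 35.3 and 24.7 CPM, and the LPC + dantrolene libraries gave 32.5, 7.33 and 30.5 CPM. LPC compared to vehicle gave 1.89 (SE 0.37, adjusted p = 0.000103) and dantrolene compared to vehicle gave 1.71 (SE 0.37, adjusted p = 0.00057). The change of TBL1XR1 in LPC + dantrolene compared to vehicle was 1.51 (SE 0.37, adjusted p = 0.00287), a call lost without LPC + dantrolene replicate 1 (adjusted p = 0.0768). LPC + dantrolene replicate 2 was at the vehicle level, and the change without it was 1.98. NCOR1 was at 113 ± 4.97 CPM in vehicle and 101 ± 8.86 in dantrolene (−0.15, SE 0.32, adjusted p = 0.865).

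Among known retinoic acid response genes, 12 of 28 were tested, and NRIP1 was the gene called. NRIP1, a corepressor of nuclear receptors, was at 11.97, 7.65 and 7.15 CPM in vehicle and rose to 27.9, 27.1 and 30.2 CPM in LPC. The dantrolene libraries gave 14.3, 31.7 and 21.1 CPM, and the LPC + dantrolene libraries gave 29.6, 10.1 and 24.3 CPM. LPC compared to vehicle gave 1.67 (SE 0.36, adjusted p = 0.000443) and dantrolene compared to vehicle gave 1.33 (SE 0.36, adjusted p = 0.00745). The change of NRIP1 in LPC + dantrolene compared to vehicle was 1.26 (SE 0.36, adjusted p = 0.0140), and 1.64 without LPC + dantrolene replicate 2. That NRIP1 call was lost with the isolation as a block (adjusted p = 0.0586), with only the groups compared (0.0690) and without vehicle replicates 2 or 3 (0.135 and 0.107) or LPC + dantrolene replicates 1 or 3 (0.204 and 0.0827). Its call with dantrolene was lost without vehicle replicates 2 or 3 (0.0902 and 0.0610) or dantrolene replicate 2 (0.188). TGM2, a transglutaminase induced by retinoic acid in many cells, was at 72.3 ± 25.7 CPM in vehicle and 36.7 ± 19.0 in dantrolene (−0.98, SE 0.36, adjusted p = 0.0804). BHLHE40, a repressor of the circadian clock, gave −0.62 (SE 0.33, adjusted p = 0.372) with LPC.

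**Figure D4:**
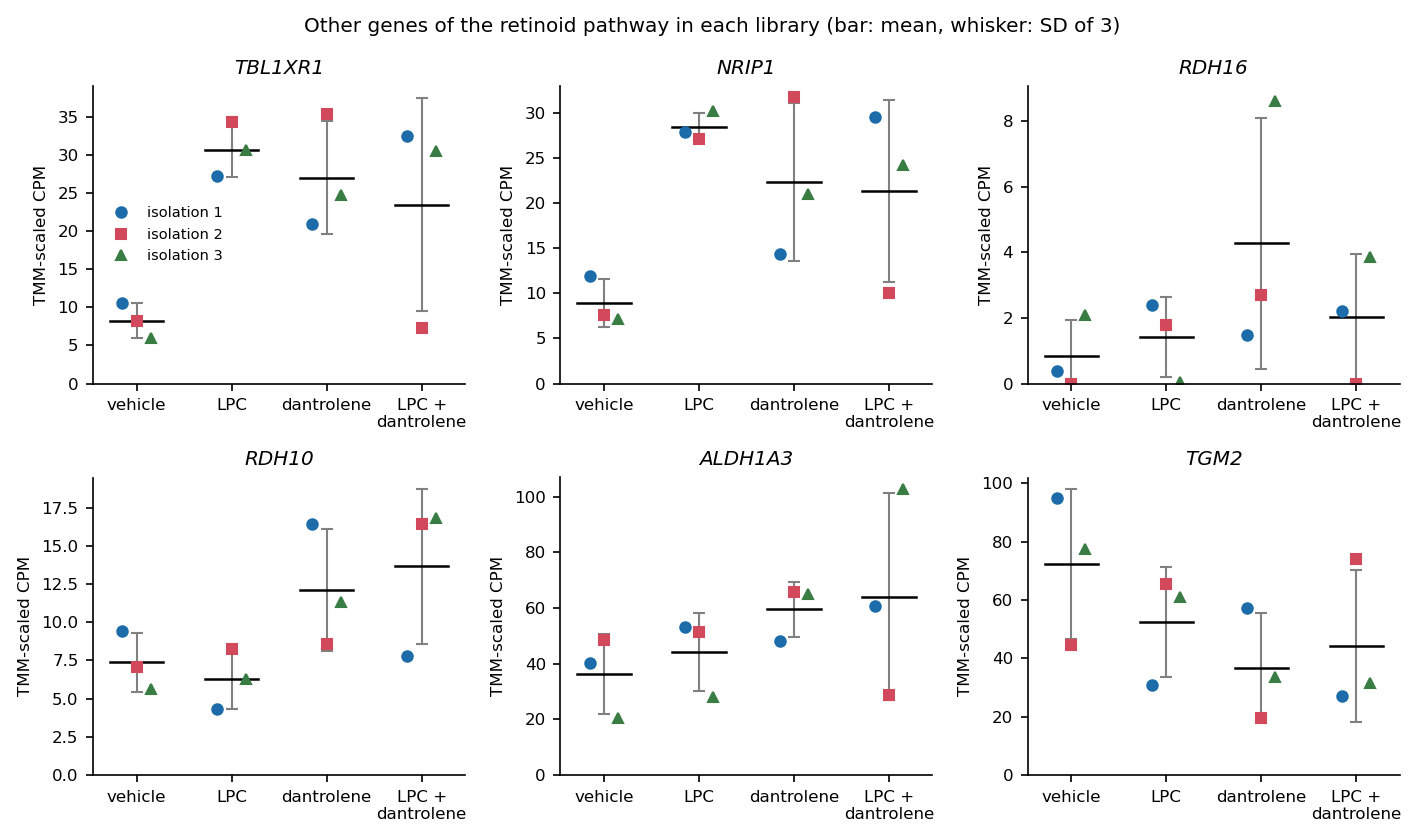
Level of 6 further pathway genes in each library, as TMM-scaled CPM (vertical axes, from 0, with a separate scale for each gene) in the 4 groups. Symbols are libraries by isolation, bars are means and whiskers the SD of 3 libraries, drawn down to 0 at most. The means of TBL1XR1 and NRIP1 are higher in LPC and in dantrolene than in vehicle, and LPC + dantrolene replicate 2 lies near vehicle for both.

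The genes whose levels were most like that of DHRS3 over the 12 libraries were sought among 11489 genes with a symbol, by Pearson's r of log2 CPM. The highest were TINAGL1 (r = 0.970), LMCD1 (0.961), PENK (0.949), ADARB1 (0.944) and ACTA1 (0.940). TINAGL1, an extracellular matrix protein, averaged 8.998 CPM in vehicle, 7.95 in LPC, 2.59 in dantrolene and 3.48 in LPC + dantrolene. ACTA1, skeletal muscle actin, averaged 356 CPM in vehicle and 75.1 CPM in dantrolene. By Spearman's rho 3 of the highest 5 genes were shared, with PENK first at 0.986.

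The most opposed were TIPARP (r = −0.982), CYP1B1 (−0.960), SRGN (−0.952), CYP1A1 (−0.920) and ZBTB16 (−0.910). TIPARP, CYP1B1 and CYP1A1 are known targets of the aryl hydrocarbon receptor. CYP1B1 averaged 22.7 CPM in vehicle, 36.9 in LPC, 1199 in dantrolene and 1274 in LPC + dantrolene. TIPARP averaged 24.8, 27.3, 95.3 and 81.1 CPM in the same order. CYP1A1 was at 0 to 0.615 CPM in the libraries without dantrolene, where 3 counts are 0.114 to 0.186 CPM. Its log2 CPM in those libraries is therefore imprecise. These correlations describe libraries that share the split by dantrolene, and no test was made of them.

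**Figure D5:**
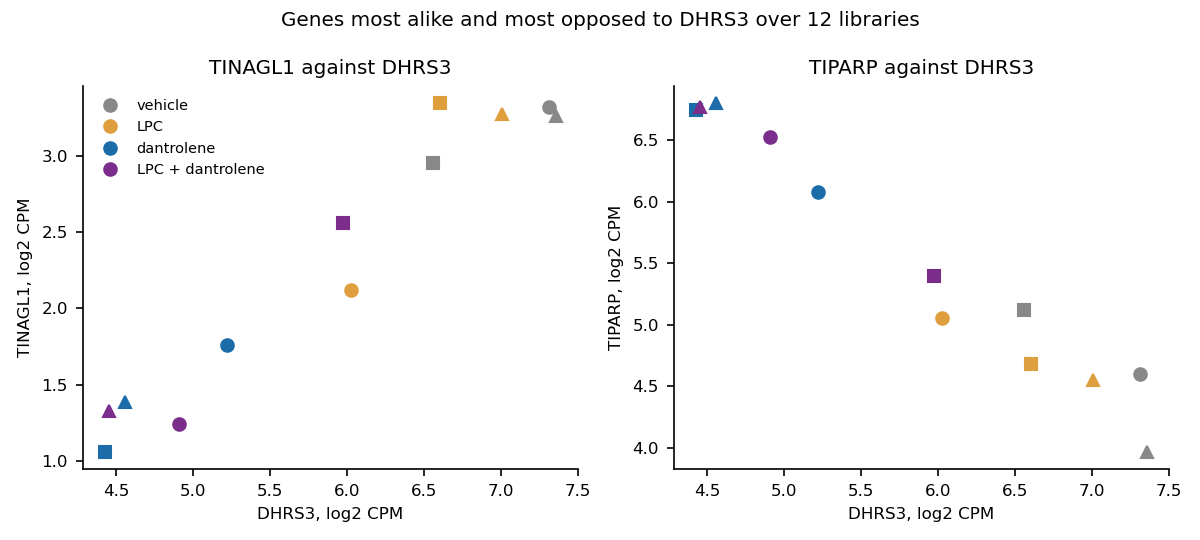
Log2 CPM of TINAGL1 (left) and TIPARP (right) against log2 CPM of DHRS3 over 12 libraries, with colors for the groups and circles, squares and triangles for isolations 1, 2 and 3. TINAGL1 rises with DHRS3 (r = 0.970) and TIPARP declines with it (r = −0.982), and the libraries without dantrolene lie at the right of both panels.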

How the data were processed

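mRNA was sequenced from paVICs in 12 libraries. The authors aligned reads to the pig genome and deposited whole-number counts per gene, adjusted for batch with ComBat and not scaled for library size. The isolations were handled on different days, so isolation and day are the same split of the libraries. The paper names STAR as the aligner, while the submitters' processing notes name HISAT2 2.0.5, with R 4.1.1, DESeq2 1.32.0 and Sscrofa11.1. The counter, annotation release and strand setting are not given in the sources used here. The tests take no account of the degrees of freedom spent on that adjustment, which can make adjusted p-values smaller than they should be. The authors' DESeq2 tables of 4 comparisons (mean signal, log2 fold change, standard error, Wald score and p-values) were not used.

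From the deposited counts, fits were made with edgeR 4.0.16 and limma 3.58.1 in R 4.3.3. Of 31908 genes, 13216 passed filterByExpr with 4 groups. TMM factors and a quasi-likelihood fit of all 12 libraries with group as the only term were used, and p-values were adjusted by Benjamini-Hochberg over all genes tested. Log2 CPM and within-isolation folds used a prior count of 2. Genes named were the members, pathway genes called in at least 1 comparison, the 2 with the most counts of each list, and the 5 most like and 5 most opposed to DHRS3. A result that this rule would name is not reported here. Members and lists were chosen with earlier results of these data known. 4 pathway genes were named from the gene-name table. The code was tested on simulated data.

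The labels number the primary isolations, which pairs the libraries across groups. Deviations from group means correlated with a median of −0.152 (−0.536 to 0.207) within an isolation and 0.108 between libraries of different isolations and groups, an outcome that an adjustment for isolation and day would fix. Alternatives were no filter, a minimum of 10 counts in every library, total counts alone as the scaling, RLE size factors, DESeq2 1.42.0, a fit of only the groups compared, a replicate block for the isolation, a threshold of 0.1 on the adjusted p, and each of 12 libraries left out.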

Additional observations from a re-analysis of the deposited data

Results flagged for a closer look

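The effect of LPC differed with and without dantrolene for 2 genes of the pathway, tested as the interaction in the edgeR fit. For TBL1XR1 the effect of LPC was lower by −2.09 on the log2 scale in the presence of dantrolene (adjusted p = 0.00615), and for NRIP1 the difference was −1.74 (adjusted p = 0.0241). Of all genes tested, 4.65% had such a difference and 4.49% had a lower one. LPC + dantrolene replicate 2, the library that stood apart, was the lowest of its group for both genes, and without it the differences were −1.74 (adjusted p = 0.00594) for TBL1XR1 and −1.47 (adjusted p = 0.0304) for NRIP1. With total counts alone as the scaling neither passed, at adjusted p of 0.0526 and 0.0820. The TBL1XR1 difference was also no longer called without LPC replicate 2 (0.0965) or dantrolene replicate 2 (0.0944). The NRIP1 difference was no longer called with the isolation as a block (0.0735), without vehicle replicates 2 or 3 (0.119 and 0.0670), without LPC replicates 1 or 2 (0.0825 and 0.122) or without dantrolene replicate 2 (0.229).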

How the results depend on the processing

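The fall of DHRS3 in LPC + dantrolene compared to LPC kept its direction in all 20 alternatives. It was not called with DESeq2 (−1.33), RLE size factors (−1.33), total counts alone (−1.36), only the groups compared (−1.36) or the replicate block for the isolation (−1.36, adjusted p = 0.215), and the count of members called there was 0 under each of these. With single libraries left out the change ran from −1.92 to −1.07 and the count of members called from 0 to 1. For pathway genes the interaction called 0 with total counts alone, 1 with the replicate block and 0 to 2 with libraries left out. LPC + dantrolene compared to vehicle called 1 with only the groups compared, 1 with the replicate block and 0 to 6 with libraries left out. Dantrolene compared to vehicle called 6 with only the groups compared and 1 to 5 with libraries left out. Pathway genes entered the tally of single genes only where the main fit called them, so they could lose a call but not gain one there. Of 763 values of single genes under an alternative, DHRS3 included, 13 changed sign and 44 lost a call, and 0 of the members or RARB gained one. Among those that changed sign, RARG in LPC + dantrolene compared to vehicle was 0.083 with total counts alone and −0.26 to 0.027 with libraries left out. With libraries left out, RARB ran from −0.14 to 0.28 for dantrolene and −1.45 to 0.038 for LPC + dantrolene compared to vehicle, and −1.53 to 0.031 for LPC + dantrolene compared to dantrolene. CRABP2 ran from −0.97 to 0.22 for LPC and −0.40 to 0.79 for dantrolene compared to vehicle, and DHRS3 ran from −0.085 to 0.76 for LPC + dantrolene compared to dantrolene. RARA ran from −0.075 to 0.48 for LPC + dantrolene compared to LPC and −0.014 to 0.14 compared to dantrolene. Scaling by total counts alone moved the median log2 fold change of all genes by 0.17 for LPC, 0.20 for LPC + dantrolene and 0.24 for dantrolene compared to vehicle. The cause of these changes was not tested. Depth limits CYP26A1, ALDH1A2 and STRA6, which did not pass the filter, and CRABP2 and RARB, whose intervals are wide.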
